A study of Anas platyrhynchos with 6 samples.

Results

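The microRNAs (miRNAs) miR-143 and miR-145 were described in the duodenum of ducks kept in cages or on the floor. Their names were found by dropping the species prefix of each name in the deposited tables and keeping every miR-143 or miR-145, whatever the arm or copy. This gave 16 of 1568 names, of which 6 were miR-143 and 10 were miR-145. Names with the same value in all 6 libraries were taken once, which left 12 distinct profiles. None of the 16 names had the duck prefix apl. Their prefixes were those of other animals, such as ola for medaka, efu for a bat, mmu for mouse, dre for zebrafish, oan for platypus and pma for lamprey.

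A miRNA is a short RNA that guides a silencing complex to messenger RNAs and lowers their output. Its hairpin precursor is cut into a 5p and a 3p strand, and usually one strand is loaded while the other is degraded. In mammals miR-143 and miR-145 are made from neighbouring hairpins of one transcript, are abundant in smooth muscle of gut and vessels under the control of serum response factor and myocardin, and favour the contractile state of that muscle. In the mouse gut they are expressed in mesenchymal cells and are low or absent in epithelial cells.

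The samples were pieces of duodenum from Nonghu No. 2 ducks before laying, chosen at 90 days of age and housed for 10 days. In the cage rearing (CR) group the ducks were held in cages, and in the traditional breeding (TB) group they were held on the floor, with 3 libraries in each group. The labels give the cell type as intestinal epithelial cells, whereas the study's methods describe pieces of gut, which also hold muscle, vessels and connective tissue. In such bulk samples fewer cells of a type and less RNA per cell cannot be told apart. Values are given as RPM, the reads of a name after each library was scaled to a sum of 1000000 over all names.

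The libraries held 11395209, 1500905 and 9998318 reads in the CR group, against 5708735, 9339494 and 9014316 reads in the TB group. CR replicate 2, the shallowest library, and TB replicate 1 stood apart from the other 4 libraries. Over the tested names their log2 values correlated with each other at 0.968 and with the other 4 libraries at 0.737 to 0.818, while those 4 correlated among themselves at 0.982 to 0.992. Each group held 1 of these libraries, and values are therefore given for each library.

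The most abundant name in each of the 6 libraries was ola-miR-143. It had 150207, 90227 and 197456 RPM in CR ducks, against 117332, 161289 and 151677 RPM in TB ducks. The highest and the lowest library were both of the CR group, so the TB values lay inside the CR range. The lowest value in each group came from the library that stood apart. The mean was 145963 ± 53741 RPM in the CR group and 143432 ± 23109 RPM in the TB group (SD, n = 3 each), a ratio of 1.02, and the 2-sided exact permutation test gave p = 1.0. With 3 libraries against 3 this test cannot give a p below 0.1.

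The names efu-miR-143 and mmu-miR-143-3p, the 3p strand by its mouse name, followed ola-miR-143 closely. The first had 140433, 84961 and 185896 RPM in CR ducks, against 110912, 153137 and 142526 RPM in TB ducks. Its mean was 137097 ± 50550 RPM in the CR group and 135525 ± 21966 RPM in the TB group (SD, n = 3 each). The second differed from it by 1 read over all libraries, with 6934593 reads against 6934594. ola-miR-143 was 1.06 to 1.07 times efu-miR-143 in the CR libraries and 1.05 to 1.06 times in the TB libraries. The 3 names therefore cannot be read as separate miRNAs, and the reads of miR-143 entered the sum of each library several times.

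**Figure D1:**
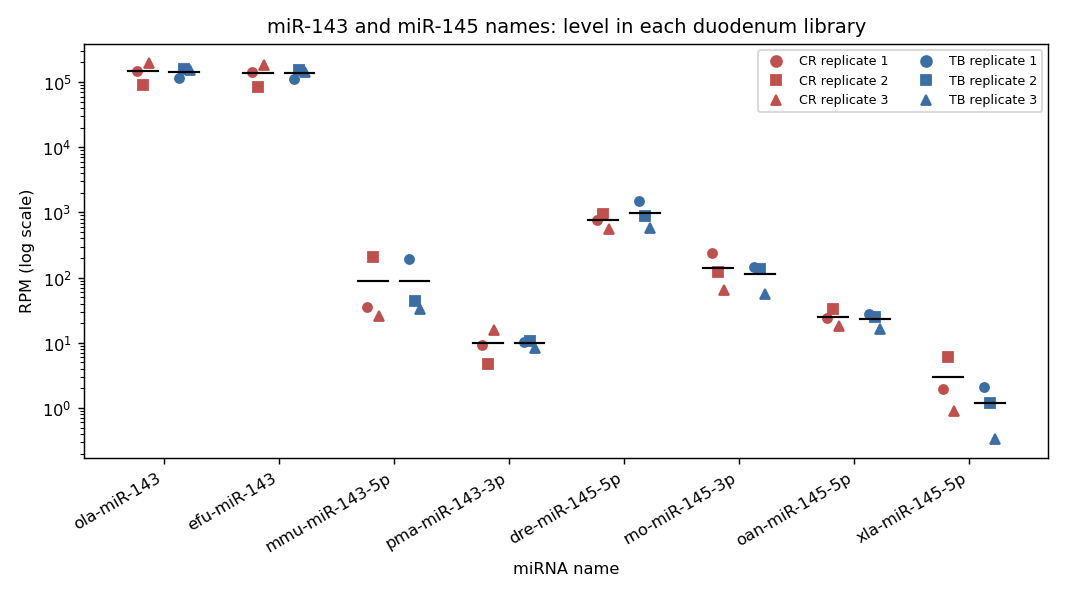
Level of miR-143 and miR-145 profiles in each library, in RPM on a log axis, with CR libraries in red to the left of TB libraries in blue and a bar at the mean of each group. ola-miR-143 lay between 90227 and 197456 RPM in CR ducks and between 117332 and 161289 RPM in TB ducks, and the groups overlapped for each profile drawn.

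The 3 abundant miR-143 names took 43.1%, 26.02% and 56.9% of the sum in the CR libraries, against 33.9%, 46.8% and 43.7% in the TB libraries. All distinct miR-143 and miR-145 profiles together took 42.2% ± 15.4 in the CR group and 41.7% ± 6.61 in the TB group (SD, n = 3 each), a difference of 0.528 percentage points (exact permutation test, p = 1.0). Leaving out 1 library moved this difference to between -6.90 points without CR replicate 3 and 8.51 points without CR replicate 2, and it was negative without CR replicate 1 (-0.0249) or TB replicate 1 (-3.18). Because one miRNA can enter the sum under many names, the share was also taken in a sum with 1 name for each miRNA number and letter, an alternative chosen after the data were seen. There ola-miR-143 alone took 30.5%, 20.2% and 41.4% in the CR libraries, against 26.3%, 32.8% and 29.1% in the TB libraries. Its mean was 30.7% ± 10.6 in the CR group and 29.4% ± 3.26 in the TB group (SD, n = 3 each). The order of the 6 libraries by the share of ola-miR-143 in this sum began with CR replicate 3 and ended with CR replicate 2, so both ends again belonged to the cage group.

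**Figure D2:**
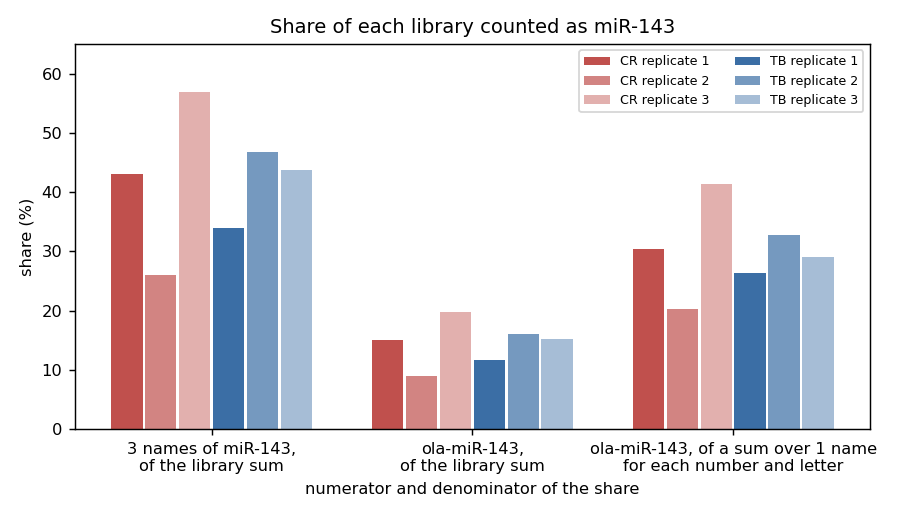
Share of each library in percent, with CR libraries in red to the left of TB libraries in blue, for 3 miR-143 names of the library sum, ola-miR-143 of the library sum, and ola-miR-143 of a sum over 1 name for each miRNA number and letter. In the last of these the CR libraries ran from 20.2% to 41.4%, and the 3 TB libraries lay inside that range.

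The 5p strand of miR-143 was present at far lower levels than the 3p strand. mmu-miR-143-5p, which had the same values as mdo-miR-143-5p, had 36.0, 205.9 and 25.5 RPM in CR ducks, against 191, 44.2 and 33.2 RPM in TB ducks. CR replicate 2 and TB replicate 1 were high and the other 4 libraries were low, the reverse of the order of these libraries for ola-miR-143. The mean was 89.1 ± 101 RPM in the CR group and 89.6 ± 88.3 RPM in the TB group (SD, n = 3 each; exact permutation test, p = 1.0). pma-miR-143-3p, the rarest miR-143 name with 503 reads, had 9.13, 4.66 and 15.8 RPM in CR ducks, against 10.2, 10.7 and 8.43 RPM in TB ducks. It was lowest in CR replicate 2, where 7 reads gave a 95% Wilson interval of 2.26 to 9.63 RPM. Such intervals cover counting error only, since reads without molecular identifiers are not independent molecules.

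The 5p strand of miR-145 was the most abundant miR-145. dre-miR-145-5p, which had the same values as mmu-miR-145a-5p, had 762, 941 and 559 RPM in CR ducks, against 1490.0, 867 and 577 RPM in TB ducks. TB replicate 1 was the highest library, CR replicate 3 and TB replicate 3 were the lowest, and the groups overlapped. The mean was 754 ± 191 RPM in the CR group and 978 ± 467 RPM in the TB group (SD, n = 3 each), a ratio of 0.771 (exact permutation test, p = 0.6). ola-miR-145 held almost the same reads, with 37474 against 37488 for dre-miR-145-5p. Among all names dre-miR-145-5p ranked 72, 128 and 79 in the CR libraries, against 91, 70 and 89 in the TB libraries.

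The 3p strand of miR-145, here rno-miR-145-3p, had 237, 120 and 65.6 RPM in CR ducks, against 148, 135 and 56.9 RPM in TB ducks. CR replicate 1 was the highest library, and the third replicate of each group was the lowest. The mean was 140.8 ± 87.6 RPM in the CR group and 113 ± 49.3 RPM in the TB group (SD, n = 3 each), a ratio of 1.24 (exact permutation test, p = 0.8). hsa-miR-145-3p had the same values, and mdo-miR-145-3p and mmu-miR-145a-3p held 1 read fewer in CR replicate 1.

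The remaining miR-145 names were rare. oan-miR-145-5p had 24.4, 33.3 and 18.2 RPM in CR ducks, against 27.7, 25.3 and 16.4 RPM in TB ducks, and the groups overlapped (exact permutation test, p = 0.8). xla-miR-145-5p, a frog name, had 1.93, 5.996 and 0.900 RPM in CR ducks, against 2.10, 1.18 and 0.333 RPM in TB ducks. Its highest value rested on 9 reads in CR replicate 2, with a 95% Wilson interval of 3.16 to 11.4 RPM. mmu-miR-145b had 1 read in CR replicate 1 and 0 reads in the other 5 libraries, where 0 reads allow up to 2.0 RPM in CR replicate 2, 0.300 RPM in CR replicate 3 and 0.321 to 0.526 RPM in the TB libraries, taking 3 reads as the limit.

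**Figure D3:**
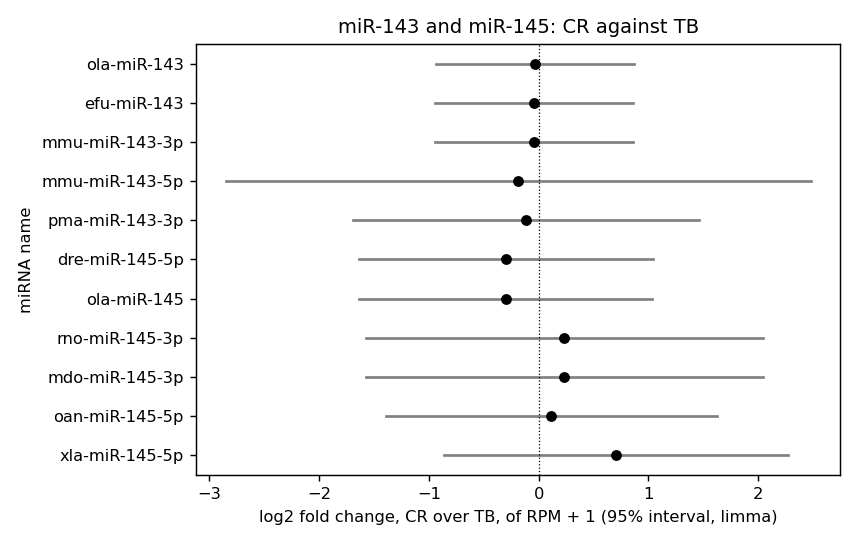
Log2 fold change of CR over TB for each distinct miR-143 and miR-145 profile tested, from limma on log2(RPM + 1), with bars for the 95% confidence interval. Each interval crossed 0, with estimates from -0.30 for dre-miR-145-5p to 0.70 for xla-miR-145-5p, which was 0.18 without CR replicate 2.

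In the limma fit of all 6 libraries by group, no miR-143 or miR-145 name was called different between the CR and TB groups. Neither was any other tested name, so this is not particular to miR-143 and miR-145. A name was tested when 3 or more libraries held 10 or more of its reads, which 15 of the 16 names and 662 of all names did. With limma on log2(RPM + 1), 0 of the 15 names had an adjusted p under 0.05, beside 0% of all tested names (0 of 662). At an unadjusted p under 0.05 limma called 0 names of all, and edgeR and DESeq2 on recovered reads called 5 names each, none of them miR-143 or miR-145, with 0 at an adjusted p under 0.05. Every CR library lay above every TB library for 0 of the 15 names, against 0.604% of all tested names, and below for 0 of the 15, against 1.66% of all.

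The log2 fold change was -0.03 for ola-miR-143 (SE 0.37, 95% interval -0.94 to 0.87, limma, adjusted p = 0.999). For mmu-miR-143-5p it was -0.18 (SE 1.10, interval -2.85 to 2.48), and for pma-miR-143-3p it was -0.12 (SE 0.65). For dre-miR-145-5p it was -0.30 (SE 0.55, interval -1.63 to 1.04), for rno-miR-145-3p 0.24 (SE 0.75, interval -1.57 to 2.04) and for xla-miR-145-5p 0.70 (SE 0.64, interval -0.86 to 2.27). The intervals of mmu-miR-143-5p, rno-miR-145-3p and xla-miR-145-5p thus held changes of over 2 on the log2 scale. Among the 11 distinct profiles tested, 4 had a positive and 7 a negative estimate, with a median of -0.04, beside 359 positive and 303 negative estimates and a median of 0.05 over all tested names. The sign for the main names turned on single libraries. It became 0.28 for ola-miR-143 without CR replicate 2, 0.06 without TB replicate 2 and 0.01 without TB replicate 3. It became 0.06 for dre-miR-145-5p without TB replicate 1. For mmu-miR-143-5p it became 0.58 when TB replicate 1 was left out, 0.39 when CR replicate 3 was and 0.15 when CR replicate 1 was, and for rno-miR-145-3p -0.23 without CR replicate 1 and -0.20 without TB replicate 3. The log2 fold change of ola-miR-143 was 0.20 in edgeR and 0.24 in DESeq2, which change both the scaling and the model, and -0.22 in limma on TMM-scaled RPM, which changes the scaling alone. In that fit dre-miR-145-5p was at -0.49. For xla-miR-145-5p the estimate was 0.18 without CR replicate 2, 0.38 without TB replicate 3 and 1.12 without CR replicate 3, and it was 1.12 with a pseudocount of 0.1 and 0.31 with a pseudocount of 5.

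The spread of ola-miR-143 over the libraries was small in RPM beside other abundant profiles, and it was larger after TMM scaling. Its highest library was 2.19 times its lowest in RPM, and 31 of the 180 profiles with a mean of at least 100 RPM varied less, their median being 7.82 times. For dre-miR-145-5p the ratio was 2.67, with 36 profiles below it. The 180 profiles include the other abundant names of miR-143 and miR-145, such as efu-miR-143 at 2.19. They can hold one miRNA several times, so these counts are not counts of separate miRNAs. After scaling with TMM factors, which were 0.773, 2.96 and 0.532 in the CR libraries and 1.70, 0.760 and 0.638 in the TB libraries, ola-miR-143 stood at 194390, 30472 and 371510 scaled RPM in CR ducks, against 69141, 212190 and 237920 scaled RPM in TB ducks. The highest value was then 12.2 times the lowest, and the lowest values stayed in CR replicate 2 and TB replicate 1. The spread of the 180 profiles was not computed under this scaling, so the 12.2 cannot be ranked among them. With the same scaling dre-miR-145-5p varied 3.59 times and mmu-miR-143-5p varied 2.42 times, against 8.07 times for mmu-miR-143-5p in RPM. A miRNA that makes up so much of a library enters its own denominator, and when each library was scaled to the names other than miR-143 and miR-145 the ratio for ola-miR-143 was 3.76.

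The levels of the 2 miRNAs, which share a transcript in mammals, were ordered differently over the libraries. The ratio of ola-miR-143 to dre-miR-145-5p was 197, 95.8 and 353 in CR ducks, against 78.7, 186 and 263 in TB ducks. It was highest in CR replicate 3 and lowest in TB replicate 1, a range of 4.49 times, and the groups overlapped. The mean log2 ratio was 7.56 ± 0.94 in the CR group and 7.29 ± 0.90 in the TB group (SD, n = 3 each), a difference of 0.26 (exact permutation test, p = 0.7). Without TB replicate 1 the difference was -0.23, and without CR replicate 3 it was -0.19. This ratio is free of the library scaling, because both values come from one library. As a description over 6 libraries that share their denominators, the correlation of log2(RPM + 1) was -0.653 between ola-miR-143 and dre-miR-145-5p. It was -0.921 between ola-miR-143 and its 5p strand mmu-miR-143-5p. It was 0.845 between mmu-miR-143-5p and dre-miR-145-5p, and 0.594 between dre-miR-145-5p and rno-miR-145-3p. These values hold for RPM only. After TMM scaling ola-miR-143 and dre-miR-145-5p were both lowest in CR replicate 2 (30472 and 318 scaled RPM). Next lowest was TB replicate 1 for both (69141 and 878 scaled RPM). Correlations under that scaling were not computed, so no opposite movement can be read from the sign.

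**Figure D4:**
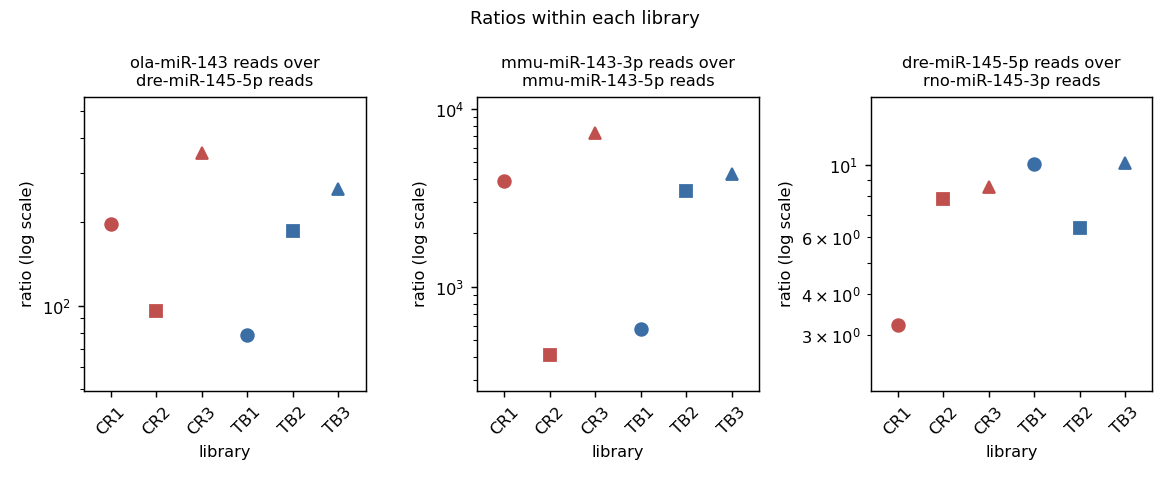
Ratios within each library on a log axis, with CR libraries in red to the left of TB libraries in blue. The ratio of ola-miR-143 to dre-miR-145-5p ran from 95.8 to 353 in CR ducks and from 78.7 to 263 in TB ducks, and the ratio of miR-143-3p to miR-143-5p was lowest in CR replicate 2 and TB replicate 1.

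The strands of one hairpin gave further ratios that need no library scaling. mmu-miR-143-3p was 3903, 413 and 7289 times mmu-miR-143-5p in CR ducks, against 579.8, 3463 and 4297 times in TB ducks. CR replicate 2 and TB replicate 1 had the lowest ratios, and the range over the libraries was 17.7 times. Both strands were measured for 38 hairpin names, which hold some hairpins, such as miR-142 and miR-17, under several species prefixes. Over these names the median of this range was 4.79 times, and 31 of the 38 had a smaller range than miR-143. dre-miR-145-5p was 3.22, 7.85 and 8.52 times rno-miR-145-3p in CR ducks, against 10.1, 6.41 and 10.1 times in TB ducks. CR replicate 1 had the lowest value, the range was 3.15 times, and 7 of the 38 hairpin names varied less.

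Profiles most like those of the main names were sought among 173 profiles with a mean of at least 100 RPM, by the correlation of log2(RPM + 1) over 6 libraries, as a description. For ola-miR-143 these were miR-30a-5p (cpi-miR-30a-5p and hsa-miR-30a-5p, both 0.908), gga-miR-1b-3p (0.888) and miR-101 (hsa-miR-101-3p and efu-miR-101, both 0.881). gga-miR-1b-3p, of the miR-1 family known from striated and smooth muscle, had 2226, 78.0 and 1553 RPM in CR ducks, against 128, 1654 and 1603 RPM in TB ducks. For dre-miR-145-5p they were sha-miR-200b (0.922), of a family known from epithelium, ami-miR-1662-5p (0.900) and miR-133 (dme-miR-133-3p, rno-miR-133c and bfl-miR-133, each 0.890). dme-miR-133-3p had 103, 822 and 64.6 RPM in CR ducks, against 907, 213.7 and 99.95 RPM in TB ducks. In RPM all these profiles shared the split of CR replicate 2 and TB replicate 1 from the other libraries, low for those like ola-miR-143 and high for those like dre-miR-145-5p. They were picked by correlation over the same libraries, so a shared split is no separate result. After TMM scaling dre-miR-145-5p itself was lowest in CR replicate 2 (318 scaled RPM).

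**Figure D5:**
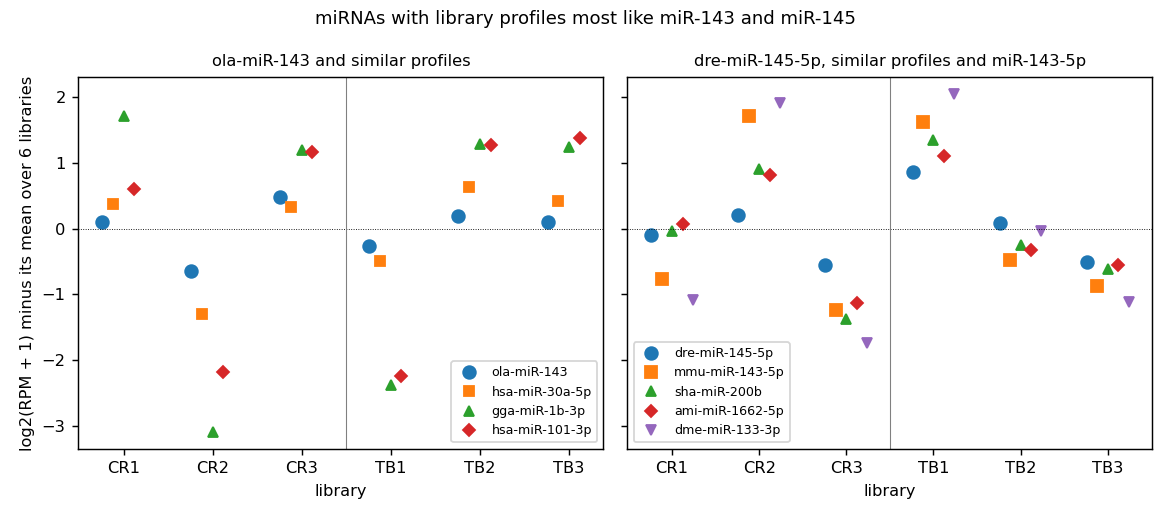
Log2(RPM + 1) minus its mean over 6 libraries, for ola-miR-143 with 3 of its most similar profiles (left) and dre-miR-145-5p with mmu-miR-143-5p and 3 of its most similar profiles (right), by library with CR left of TB. The profiles on the left were lowest in CR replicate 2 and TB replicate 1, where mmu-miR-143-5p and dme-miR-133-3p on the right were highest.

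Of the other miRNAs studied in smooth muscle (miR-1, miR-133, miR-21, miR-26, miR-221 and miR-222), 62 of 95 names were tested. Of these, 0 passed an adjusted p under 0.05 in limma in either direction, as did 0 of all 662 tested names. sha-miR-21, the most abundant of them, had 84192, 35761 and 59471 RPM in CR ducks, against 25028, 74910.1 and 82184 RPM in TB ducks. aca-miR-26-5p had 10441, 17513 and 3104 RPM in CR ducks, against 18401, 5566 and 3372 RPM in TB ducks. bta-miR-221 had 215.4, 2347 and 80.6 RPM in CR ducks, against 3218, 104 and 100.2 RPM in TB ducks, and gga-miR-222a had 72.4, 674 and 21.8 RPM in CR ducks, against 717, 38.4 and 31.1 RPM in TB ducks. mmu-miR-1b-5p, the highest miR-1 name, had 4662, 254 and 3180.3 RPM in CR ducks, against 269, 3325 and 3338 RPM in TB ducks. In RPM bta-miR-221, gga-miR-222a and aca-miR-26-5p were thus high in CR replicate 2 and TB replicate 1. sha-miR-21 and mmu-miR-1b-5p were low there, as ola-miR-143 was. Levels of these 5 names after TMM scaling were not computed, so this holds for RPM only. Other names and strands of these miRNAs need not follow. The 5p to 3p ratio of hsa-miR-221 was 0.0045 in CR replicate 2 and 0.0046 in TB replicate 1, against 0.229 to 0.503 in the other libraries. The log2 fold changes of the highest name of each miRNA ran from -0.61 for dme-miR-133-3p to 0.24 for aca-miR-26-5p.

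In RPM, some markers of other cells moved with the same split of the libraries and others did not, also within one list. The TMM factors were 2.96 in CR replicate 2 and 1.70 in TB replicate 1, against 0.532 to 0.773 in the other libraries. Marker levels were not computed after that scaling, so which markers share the split is stated for RPM only. Each marker list was summed over its distinct profiles. Fibroblast and mesenchyme miRNAs (miR-199 and miR-214, 26 of 27 names detected) summed to 1117, 6300.2 and 760.3 RPM in the CR libraries, against 3566, 1243 and 1077 RPM in the TB libraries. In this list cgr-miR-214-3p had 1518 RPM in CR replicate 2 and 671 RPM in TB replicate 1, against 13.6 to 22.8 RPM elsewhere. aca-miR-199a-5p varied 1.83 times and showed no such split in RPM. Intestinal epithelium miRNAs (64 of 65 names detected) summed to 147689, 62034 and 152444 RPM in the CR libraries, against 78378, 164025 and 207654 RPM in the TB libraries. hsa-miR-215-5p, its most abundant name, was lowest in CR replicate 2 and TB replicate 1. So were dre-miR-192 (275 and 136 RPM) and mmu-miR-194-5p (11480 and 20685 RPM). sha-miR-200b and xla-miR-429 were highest in these libraries, and dre-miR-141-3p varied 1.34 times in RPM. Blood miRNAs (32 of 32) ranged from 514 to 1845 RPM in the CR libraries and from 208 to 2001 RPM in the TB libraries, lowest in CR replicate 2 and TB replicate 1 as gga-miR-142-5p was, while hsa-miR-451a was lowest in TB replicate 2 and hsa-miR-223-3p, a myeloid marker, was at 0.10 RPM in CR replicate 3 and at 0 in the other 5 libraries. Striated muscle miRNAs (50 of 50 names) ranged from 3951 to 8256 RPM in the CR libraries and from 4255 to 6620.1 RPM in the TB libraries. In this list mmu-miR-1b-5p (254 and 269 RPM) and gga-miR-499-5p (1.33 and 2.45 RPM) were lowest in CR replicate 2 and TB replicate 1. By contrast, dme-miR-133-3p (822 and 907 RPM) and mdo-miR-206 (25.3 and 10.3 RPM) were highest there. mdo-miR-206 was at 0 in CR replicate 1 and in 2 TB libraries. Endothelial miRNAs (15 of 15) ranged from 2528 to 5116 RPM in the CR libraries and from 1795 to 4333 RPM in the TB libraries. They were lowest in TB replicate 1 (1795 RPM) and CR replicate 2 (2528 RPM), though CR replicate 3 (2665 RPM) lay close to the latter. Enteroendocrine miRNAs (31 of 31) ranged from 4311 to 25129 RPM in the CR libraries and from 5519 to 13697 RPM in the TB libraries, highest in CR replicate 2 and TB replicate 1. There bfl-miR-375 was highest, with 7309.6 and 3716 RPM, and gga-miR-7 was lowest, with 289 and 862 RPM. The hepatocyte miRNA miR-122 (5 of 5) ranged from 7.90 to 897 RPM in the CR libraries and from 4.22 to 19.1 RPM in the TB libraries, high in CR replicate 2 alone. Pancreas miRNAs (12 of 18) ranged from 3.10 to 26.7 RPM in the CR libraries and from 1.11 to 55.2 RPM in the TB libraries. Their sum was highest in TB replicate 1 (55.2 RPM) and CR replicate 2 (26.7 RPM). The part of these cells in the levels of miR-143 and miR-145 was not tested.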

How the data were processed

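Duodenal small RNA libraries came from 3 CR and 3 TB samples. The deposited values, under a column headed TPM, are RPM: each library sums to 1000000, and the authors' methods name FPKM. All values (100.0%) came out as whole reads within 0.01 reads. The read sums ran from 1500905 to 11395209 in the CR libraries and from 5708735 to 9339494 in the TB libraries, and reads that carry several names are in these sums repeatedly. The aligner and genome build are not given in the sources used here. The labels do not say whether libraries are separate ducks, so p-values measure only the spread between these samples.

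limma 3.58.1 (lmFit, eBayes with a trend) was run on log2(RPM + 1) for 662 names, which needed 10 reads in 3 libraries, with Benjamini-Hochberg adjustment over all of them. Fold changes are on this scale and understate changes of low names. edgeR 4.0.16 and DESeq2 1.42.0 were alternatives on recovered reads and called 0 names at an adjusted p under 0.05 and 5 names each at an unadjusted p under 0.05. Single values were compared by 2-sided exact permutation tests. The software was R 4.3.3 and Python 3.11.15 with matplotlib 3.10.9, scipy 1.17.1, pandas 2.3.3 and numpy 2.4.6. limma, edgeR and DESeq2 were also run on simulated reads. Those reads lacked the split of the libraries seen here, so they do not show how the tests perform under it.

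Named were all miR-143 and miR-145 names, identical profiles once, then 5 profiles most like the highest name of each, and the highest name of each other smooth muscle miRNA. The highest names of cell type markers were added after their values were seen. The members and lists were chosen with earlier results of these data known. Other alternatives were the pseudocount, filter, scaling, blocks and leaving out libraries. Sequences and genome positions were not used here.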

Additional observations from a re-analysis of the deposited data

How the results depend on the processing

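Of 187 alternative values, 154 kept their direction and side of the threshold, 32 changed sign, and 1 count of calls moved. With the split of CR replicate 2 and TB replicate 1 from the other libraries as a block, 5 names passed an adjusted p under 0.05 in limma, against 0 otherwise. All 5 were higher in CR, and none of them was miR-143 or miR-145. The split was taken from these same data, and several names can stand for the same miRNA, so the 5 are not read as separate changed miRNAs. Which names they were is not given here. The 5 names of miR-122 had log2 fold changes of 2.08 to 2.23 in the main fit. They rested on CR replicate 2, with 328 RPM of oha-miR-122-5p there against 1.55 to 7.36 RPM elsewhere. The log2 fold change of miR-143 (-0.03 for ola-miR-143) was 0.20 in edgeR, 0.24 in DESeq2, -0.22 in limma on TMM-scaled RPM, 0.0079 when scaled to names other than miR-143 and miR-145, 0.0066 with 1 name for each miRNA number and letter (chosen after seeing the data), 0.14 in the 4 libraries other than CR replicate 2 and TB replicate 1, and -0.29 to 0.28 on leaving out 1 library. For efu-miR-143 (-0.04) these were 0.19 in edgeR, 0.23 in DESeq2, 0.13 in the 4 libraries and -0.30 to 0.27. For pma-miR-143-3p (-0.12) they were 0.37 in edgeR, 0.42 in DESeq2, 0.31 in the 4 libraries and -0.50 to 0.28. On leaving out 1 library, miR-145 (-0.30, and -0.49 in TMM-scaled RPM) ran from -0.62 to 0.060, mmu-miR-143-5p from -1.09 to 0.58, rno-miR-145-3p from -0.23 to 0.68, oan-miR-145-5p from -0.10 to 0.32, xla-miR-145-5p (0.70) from 0.18 to 1.12, the log2 ratio of miR-143 to miR-145 from -0.23 to 0.75, and the share from -6.90 to 8.51 percentage points. oan-miR-145-5p was -0.058 in TMM-scaled RPM, a scaling under which the median of all tested names was -0.11, against 0.05 in RPM. The cause of these changes was not tested.

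Whether the replicate numbers pair the samples could not be decided. Deviations of same-numbered libraries from their group means correlated at -0.799, -0.909 and 0.909, and not every library correlated best with its own number. These deviations carry the split of CR replicate 2 and TB replicate 1, which have different numbers, so they cannot show whether samples were paired. With the replicate block the log2 fold change was -0.03 for miR-143 and -0.30 for miR-145, the log2 ratio differed by 0.26, the share by 0.528 points, and 0 names were called. Depth limits pma-miR-143-3p, xla-miR-145-5p and mmu-miR-145b most, above all in CR replicate 2, where 1 read is 0.666 RPM.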

Other observations

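oan-miR-145-5p and dre-miR-145-5p are names of one miRNA strand, and their proportion needs no library scaling. It was looked at after the data were seen and is given without a test. Reads can carry several names, and whether both names hold some of the same reads was not checked. oan-miR-145-5p made up 3.10%, 3.42% and 3.15% of the summed reads of both names in CR ducks, against 1.82%, 2.83% and 2.77% in TB ducks. Each CR library thus lay above each TB library. How often such proportions separate the groups over all names was not computed, so this separation is not read as a result. An exact permutation test of 3 libraries against 3 cannot give a p below 0.1, even for a full separation. The like proportion of pma-miR-143-3p to mmu-miR-143-3p did not separate them. It was 0.0065%, 0.0055% and 0.0085% in CR ducks, against 0.0092%, 0.0070% and 0.0059% in TB ducks. For oan-miR-145-5p the 95% Wilson intervals cover counting error only and take the reads of both names as separate. In the CR libraries they were 2.76% to 3.48%, 2.60% to 4.48% and 2.73% to 3.64%. In the TB libraries they were 1.56% to 2.13%, 2.496% to 3.21% and 2.36% to 3.24%. Only the interval of TB replicate 1 lay apart from those of the CR libraries, and those of TB replicates 2 and 3 overlapped them.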
